A study of Mus musculus with 2 samples.

Results

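The 200 miRNAs described here are the 5p arms of the mouse miRNAs from miR-6896 to miR-7094 in the miRBase catalogue, letter suffixes included, out of 1900 miRNA probes on a Toray 3D-Gene array. They were picked out by name, with earlier results of these data known, and each had 1 spot per array. The probes of miR-7094-1-5p and miR-7094b-2-5p carry an extra number in the name and were left out; the first was not detected on either array and the second was detected on the control array only. C57BL/6 mice, 5 weeks old, had been injected in the peritoneal cavity with ID-8 LUC2 cells, which derive from mouse ovary and form ovarian tumours. Bevacizumab, an antibody against the growth factor VEGF-A, or control IgG was injected from day 14 at 5 mg/kg, 2 times a week, and the mice were killed on day 42. The design text speaks of RNA from tumours and the sample protocol of RNA from cells, so the source is not settled. Bevacizumab was raised against human VEGF-A, and the arrays do not measure whether it bound that of these mice. There was 1 Cy5-labelled array per treatment, and no label says whether an RNA came from 1 mouse or several. The values below therefore compare 2 arrays, without a test between the treatments and without an error between animals.

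A mirtron is a short intron that folds into a hairpin once the spliceosome has cut it out, so that its precursor is made without Drosha, the nuclear enzyme that trims most miRNA precursors. Dicer then cuts the hairpin as it cuts any other, and either arm can enter an Argonaute protein, where bases 2 to 8, the seed, pair with target transcripts. Mirtron levels depend on transcription and splicing of the host gene, and mouse mirtrons are as a rule known from sequencing at low abundance, with few described targets.

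The sequences that follow are those of the members at either end of the ratio between the arrays, so that a reader can see what kinds of RNA lie there. They are RefSeq mature sequences on GRCm38.p6, written 5′ to 3′ with the seed in capitals. Of the 200 members, 176 had an entry. The gene named with each is the protein-coding gene whose span holds it on the same strand; the tables used give gene spans and not exons. First come the 8 members with the highest ratio, bevacizumab over control, among the 139 whose spots were more than 5 SD above the blanks on both arrays. Without that limit miR-7027-5p and miR-6928-5p, described with the ratios, would be among the 8.
miR-6915-5p, chr10:128388837-128388860, plus strand, in Ankrd52: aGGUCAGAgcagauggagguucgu
miR-6939-5p, chr12:112659327-112659347, minus strand, in Akt1: cAGGCAGCugguugguggaag
miR-6919-5p, chr11:50232250-50232272, plus strand: uAGGCCACuggagguggaauugu
miR-6955-5p, chr15:78891845-78891868, plus strand, in Gga1: aGGGCCUCaggacucaggagguga
miR-6988-5p, chr19:6051338-6051358, plus strand, in Syvn1: gGGGUGGAgagcugaggccca
miR-6969-5p, chr17:28558475-28558496, minus strand: cAGCAGAGuagggagcaaaaga
miR-6965-5p, chr17:24240919-24240942, minus strand, in Ccnf: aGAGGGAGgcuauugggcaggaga
miR-7003-5p, chr2:163068095-163068115, plus strand, in Mybl2: uGUGGGGAgaagcugcggcag

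The 8 members with the lowest ratio under the same limit, shown to set them against the first 8, were the following. Without it miR-6978-5p would be among the 8. Members of both sets were G-rich, and the share of G overlapped between them, from 36.4% to 52.4% in the first and from 30.4% to 54.2% in the second.
miR-7036b-5p, chr5:34574151-34574172, plus strand, in Add1: aCGCGGGGuucucuguggaagc
miR-7090-5p, chr9:120955089-120955111, plus strand, in Ctnnb1: uCUCAGAGuugggacaccaugag
miR-6995-5p, chr19:47273562-47273584, minus strand: cUGGGAGUagaagggggaaacca
miR-6908-5p, chr10:78445131-78445152, minus strand, in Pdxk: uUGCCUGUcagggagagcccca
miR-7046-5p, chr7:24970047-24970070, minus strand, in Rabac1: uGUAGGGUgaggcugggagccagg
miR-7031-5p, chr5:121819246-121819268, minus strand, in Sh2b3: cCUGAGAGgccugaaggguggga
miR-6945-5p, chr13:55507667-55507688, minus strand, in Pdlim7: uCCUGGGAggggcagccccugg
miR-6959-5p, chr15:89305705-89305727, minus strand, in Sbf1: uGGGAAACcugugucgggcugug

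The precursors looked like introns at their 3′ end. Of 171 annotated precursor hairpins of members, 158 (92.4%) ended in AG, the last bases of nearly every intron, against 68 of 757 hairpins of miRNAs outside the number block (9.0%). The 5p arm began after 5 hairpin bases in 135 of the 171 and at the first base in 21. Of the 176 members with coordinates, 155 (88.1%) lay inside a protein-coding gene on the same strand. Neither the starts of the 5p arms nor the share inside genes was set against other miRNAs. The label "mirtron-like" fits the AG ending, but the gene spans used do not show where the introns begin and end. The hairpins of miR-6955-5p and miR-7005-5p, 2 members with high signals, are printed with the 5p arm in capitals to show this layout. That of miR-7036b-5p, the member with the lowest ratio, is printed too. Its 5p arm begins at the first base, and it does not end in AG.
miR-6955 hairpin, chr15:78891840-78891913, plus strand: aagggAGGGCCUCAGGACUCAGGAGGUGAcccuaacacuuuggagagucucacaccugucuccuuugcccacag
miR-7005 hairpin, chr2:180179755-180179823, minus strand: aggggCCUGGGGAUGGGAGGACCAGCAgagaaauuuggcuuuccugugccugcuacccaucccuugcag
miR-7036b hairpin, chr5:34574151-34574213, plus strand: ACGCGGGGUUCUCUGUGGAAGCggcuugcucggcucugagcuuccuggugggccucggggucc

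The mature 5p arms were rich in G. The median member was 43.7% G and 13.6% C, over a median length of 22 bases. Outside the number block the median miRNA was 26.1% G, and among the 3p arms of the block it was 14.3% G and 40.9% C. The run GGG, searched in the mature strand only, stood in 133 of the 176 members (75.6%) and in 30.3% of all the array's miRNAs with a sequence. GGGG, every match of which also holds GGG, stood in 38.1% of members and in 11.3% of all. U was the first base of 47.7% of members and 40.5% of all.

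Members were detected more often than the array as a whole, and the gap was wider on the bevacizumab array. Detection required a spot more than 2 SD over the mean of the 896 blank spots, trimmed by 5% at each end. Measured from that mean, the limit was 1.66 intensity units for control IgG and 8.06 for bevacizumab. The control array detected 182 of 200 members (91.0%), against 74.5% of all 1900 miRNA probes. The bevacizumab array detected 167 members (83.5%), against 49.5% of all. Both arrays detected 166 of 200 members, against 48.3% of all probes. Of the rest, 16 were seen on the control array only, 1 on the bevacizumab array only and 17 on neither. Of the miRNAs detected on the control array, 8.79% of members were not detected on the bevacizumab array, against 35.2% of all.

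Members also kept detection more often than other miRNAs of like signal. They had higher signals than other miRNAs, with a median of 28.5 units over the control-array blanks among those detected there, against 11.6 for all other miRNAs. Among probes at 10 units or more on the control array, 144 of 145 members were also seen on the bevacizumab array (99.3%). For the other miRNAs above that signal the count was 565 of 664 (85.1%). It was 67 of 72 for the 3p arms of the block (93.1%). It was 191 of 203 for other miRNAs numbered 2000 or above (94.1%) and 307 of 389 for those numbered below 2000 (78.9%). Below 10 units, 22 of 37 members were also seen (59.5%), against 186 of 570 other miRNAs (32.6%). At like signal, miRNAs outside the block of 40% G or more kept detection nearly as often as members of any G content. From 10 to 30 units 51 of 52 were also seen, against 56 of 57 members. From 30 to 100 units it was 38 of 40, against 51 of 51, and below 10 units 23 of 44 (52.3%). Over all signals 12.6% of them lost detection, against 8.79% of members.

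**Figure D1:**
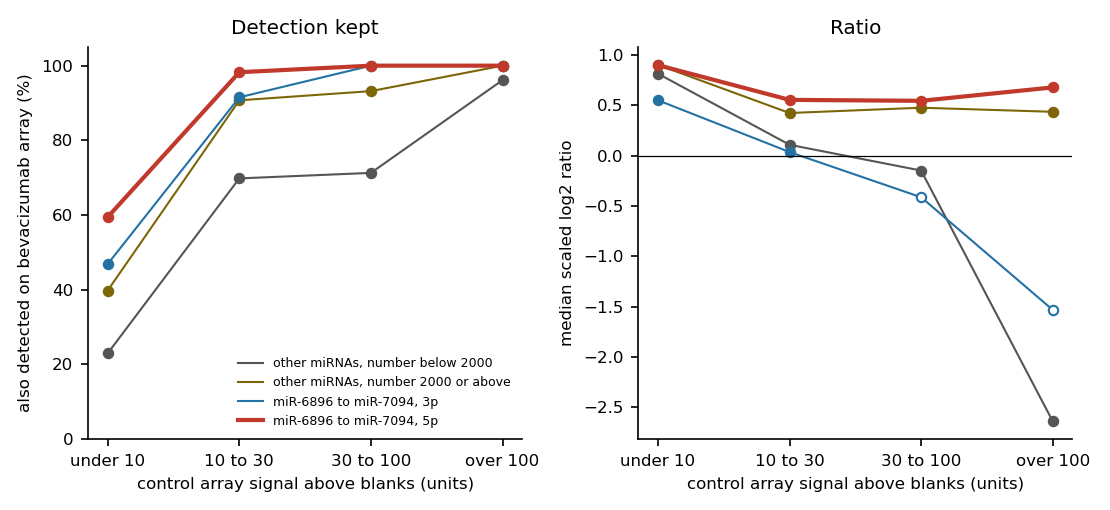
Left, share of miRNAs detected on the control array that were also detected on the bevacizumab array (%), and right, median scaled log2 ratio of those detected on both, by control-array signal (intensity units above the blanks). Lines are 4 classes of miRNA, and open points hold fewer than 20 miRNAs. The members' line is highest or shares the highest place on the left. On the right it stays between 0.55 and 0.90 while that of miRNAs numbered below 2000 drops to -2.64. Below 10 units a ratio needed a bevacizumab signal over 8.06 units, so low ratios are left out there.

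Most members carried low signals, and a few were bright. On the control array 145 of 200 members exceeded 10 units above the blanks, 37 exceeded 100 and 2 exceeded 1000. On the bevacizumab array the counts were 160, 61 and 6. The signal of a spot also depends on its probe, so the order of members by signal is not an order of abundance. miR-7005-5p, which lies in the laminin gene Lama5, had the highest signal on both arrays, at 3708 units with control IgG and 8053 with bevacizumab. miR-6955-5p, in the Golgi adaptor gene Gga1, had the second highest on both, at 1034 and 5023 units. miR-6988-5p, in Syvn1, a ubiquitin ligase gene of the endoplasmic reticulum, read 669 and 2830. These signals were higher on the bevacizumab array. miR-7059-5p, in the lysosomal membrane protein gene Cln3, read 974 and 981 and was thus nearly equal before scaling. miR-6968-5p, in the Polycomb-associated gene Phf1, read 645 and 1348. miR-7063-5p and miR-6937-5p, among the 5 highest on the bevacizumab array only, read 575 and 499 units with control IgG and 2098 and 1911 with bevacizumab.

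**Figure D2:**
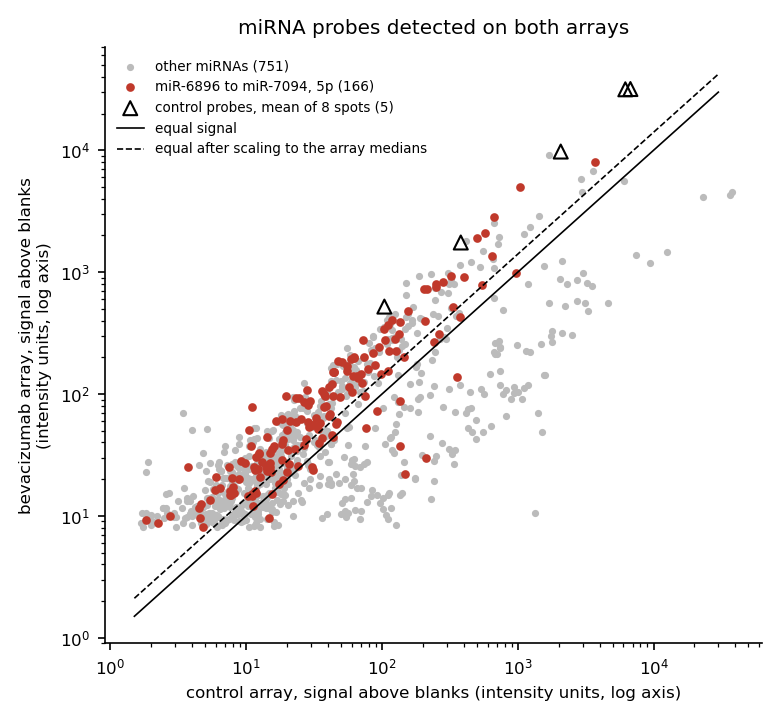
Signal above the blanks on the bevacizumab array against the control array for the miRNAs detected on both, in intensity units on log axes. Of the 166 members in red, 155 lie above the line of equal signal.

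The bevacizumab array gave higher readings in general, so the ratios need a scale. Without scaling, 155 of 166 members detected on both arrays read higher on the bevacizumab array, against 73.3% of all 917 such miRNAs. The median member read 2.14 times as high and the median miRNA 1.77 times. The 5 control probes printed in 8 bright spots each read 4.61 to 5.11 times as high, and 160 of 166 members lay below the lowest of them, against 96.5% of all. The ratios that follow divide each array by its median over the 917 miRNAs, which takes 1.41-fold off the bevacizumab array; on that scale the median of all 917 was 0.33 (log2) and not 0. The error given with a log2 ratio combines the repeat-spot SD of the control probes, 0.16, with the SD of the blanks on both arrays. It covers error between spots only, and was 0.19 for the median member.

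On that scale members were shifted upward and seldom low. Their median log2 ratio was 0.61, which is 0.28 above that of all miRNAs, and the quartiles were 0.14 and 1.06. A ratio 2-fold higher or more was seen in 50 of 166 members (30.1%), against 19.7% of all. The ratio was 2-fold lower or more in 7 members (4.22%), against 19.5% of all. Set against the median miRNA and their own errors, 64 members lay more than 2 errors above it, 26 more than 2 errors below it and 76 in between. Among all 917 the counts were 219, 266 and 432. Members thus exceeded the array as a whole in high ratios and had fewer low ones. The highest and lowest member ratios were 2.33 and -3.31, and the SD over members was 0.83, against 1.54 over all other miRNAs and 0.82 over the 3p arms of the block, of which 8.04% were 2-fold lower or more.

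The direction of the median rests on the scale, and the gap to other miRNAs on the background correction. Scaled to the control probes the members' median was -1.17 and that of all miRNAs -1.45, and in the authors' deposited table the medians were -0.17 and -0.45. When each spot's local background was subtracted in place of the blank level, the members' median was -0.0010 and that of all -0.0020, with 12 of 165 members at least 2-fold higher (7.27%) and 12 lower (7.27%), against 9.14% and 17.4% of all. Local background at members' spots had a median of 75.8 units on the control array, against 63.3 at the blank spots, and of 173 against 157 on the bevacizumab array; its part in the result was not tested.

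**Figure D3:**
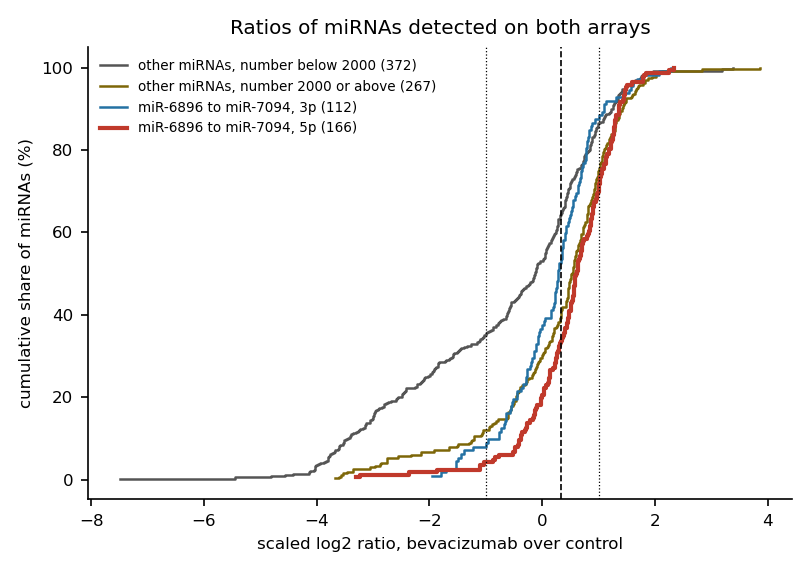
Cumulative share of miRNAs (%) by scaled log2 ratio, bevacizumab over control, for miRNAs detected on both arrays in 4 classes. Dotted lines mark 2-fold and the dashed line the median of all, 0.33; the members' curve lies to the right, with a median of 0.61, and lacks the long left tail of miRNAs numbered below 2000.

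The shift ran through the whole number block. From miR-6896-5p to miR-6945-5p the median log2 ratio was 0.70, and in the next 3 ranges of 50 numbers or fewer it was 0.57, 0.63 and 0.60. Among members of 10 units or more, the ratio showed little relation to the signal on the control array. The median was 0.90 below 10 units, 0.55 from 10 to 30, 0.55 from 30 to 100 and 0.68 above 100. In the other miRNAs it was 0.80, 0.20, -0.10 and -1.90 over the same ranges. Below 10 units a ratio needed a bevacizumab signal over 8.06 units, so low ratios were left out. Only 22 of 37 members and 186 of 570 other miRNAs had a ratio there, and none of these was 2-fold lower. Of 37 members above 100 units, 15 had ratios 2-fold higher or more and 5 had ratios 2-fold lower or more, against 19 and 113 of 189 other miRNAs detected on both arrays. Other miRNAs numbered 2000 or above had medians of 0.90, 0.42, 0.48 and 0.44 over the same ranges of signal. Above 100 units, 12 of 62 of them were 2-fold higher or more and 17 were 2-fold lower or more. For miRNAs outside the block of 40% G or more the counts were 12 and 7 of 55.

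Of the members above 5 SD on both arrays, miR-6915-5p had the highest ratio. It lies in Ankrd52, a regulatory subunit gene of a protein phosphatase, and read 11.0 units with control IgG and 77.9 with bevacizumab. The reading was 7.08 times as high, and 5.04-fold higher after scaling (log2 2.33 ± 0.21, spot error). miR-6939-5p, in the kinase gene Akt1, read 19.8 and 96.9 units and was 3.48-fold higher (1.80 ± 0.18). miR-6919-5p read 10.5 and 50.9 units and was 3.47-fold higher (1.79 ± 0.23). The bright miR-6955-5p had the same ratio at much higher signal, 3.46-fold (1.79 ± 0.16). These 4 were also above 0 when scaled to the control probes, at 0.55, 0.021, 0.014 and 0.0098, of which only the first exceeds its spot error. With local background subtracted in place of the blank level they were at 0.60, 0.61, 0.78 and 0.14, each less than 2-fold higher.

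The other 4 of the 8 were lower than the control probes. miR-6988-5p was 3.01-fold higher on the scaled ratio (1.59 ± 0.16). miR-6969-5p read 23.1 and 92.1 units and was 2.83-fold higher. miR-6965-5p, in the cyclin gene Ccnf, read 47.0 and 185 units and was 2.80-fold higher. These ratios were alike within their spot errors, as was that of miR-7003-5p, in the cell-cycle transcription factor gene Mybl2, which read 27.9 and 109 units and was 2.78-fold higher. With local background subtracted in place of the blank level these 4 lay between 0.13 and 0.67, each less than 2-fold higher. Scaled to the control probes they lay between -0.19 and -0.31. Of all 6 members above 0 on that scale, miR-7027-5p (3.75 and 25.0 units) and miR-6928-5p (1.84 and 9.30 units), the latter named after its value was seen, were close to the detection limits, with spot errors of 0.42 and 0.92.

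**Figure D4:**
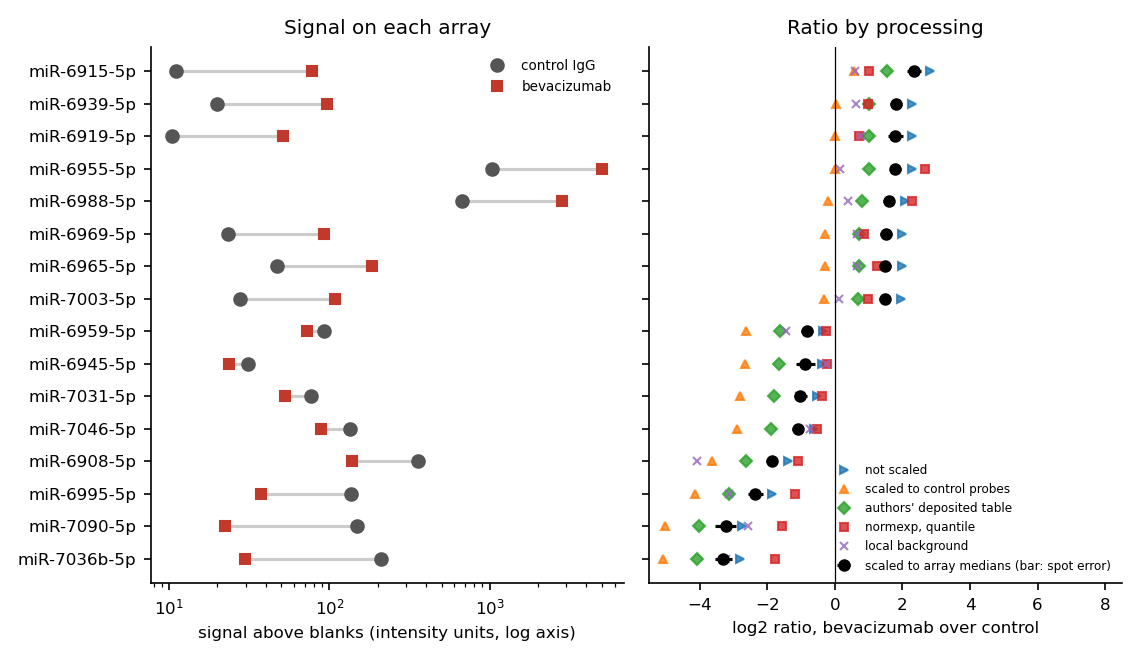
The 8 members with the highest and the 8 with the lowest scaled ratio among those more than 5 SD above the blanks on both arrays. Left, signal above the blanks on each array (intensity units, log axis); right, log2 ratio by processing, with the spot error as bars on the black points. Black points run from 2.33 for miR-6915-5p to -3.31 for miR-7036b-5p; the points scaled to the control probes lie 1.78 lower throughout.

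Among the low members, 4 lay well below the others, and the next ones ran on toward the rest without a gap. miR-7036b-5p, in the cytoskeletal adducin gene Add1, read 210 units with control IgG and 29.8 with bevacizumab, 9.90-fold lower after scaling (log2 -3.31 ± 0.25). miR-7090-5p, in the beta-catenin gene Ctnnb1, read 148 and 22.2 units and was 9.40-fold lower (-3.23 ± 0.31). miR-6995-5p read 137 and 37.5 units and was 5.12-fold lower (-2.36 ± 0.22). miR-6908-5p, in the pyridoxal kinase gene Pdxk, read 358 and 138 units and was 3.64-fold lower (-1.87 ± 0.16). Over the processings tried these 4 lay between -1.09 and -5.09. All 8 listed low members read lower with bevacizumab before scaling and lay below 0 under each processing. miR-7046-5p, at 135 and 88.3 units, was 2.14-fold lower, and miR-7031-5p, in the signalling adaptor gene Sh2b3, at 76.3 and 52.7 units, was 2.04-fold lower. miR-6978-5p, the other member past 2-fold and named after its value was seen, read 14.7 and 9.67 units, with a spot error of 0.63. miR-6945-5p (-0.87) and miR-6959-5p (-0.83) did not reach 2-fold.

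The members nearest to the median miRNA show what no relative shift looks like on these arrays. miR-7036a-5p, which shares its number with the lowest member but lies in another gene, Srrt, read 127 and 224 units (log2 0.32 ± 0.16). miR-7050-5p read 14.1 and 25.0 units (0.34 ± 0.29), and miR-6971-5p 30.8 and 55.3 units (0.35 ± 0.19). Before scaling, their bevacizumab readings were 1.76-fold to 1.80-fold those with control IgG.

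Members that share a seed could pair with the same target sites, so their sequences and ratios are given together. The 176 sequences held 155 seeds, of which 18 were shared by 2 or 3 members. In 15 of these groups, with 33 members, at least 2 were detected on both arrays. Shown here are the 3 seeds with 3 members each, a pair in which both members were more than 2-fold higher, and a pair close to 0.
miR-7030-5p, chr5:115645578-115645599, plus strand, in Rab35: uGGGGAGGuggcugugcuaguc
miR-7075-5p, chr8:107096081-107096101, minus strand, in Terf2: cGGGGAGGaggacaugguuuu
miR-7076-5p, chr8:111689649-111689669, minus strand, in Ctrb1: aGGGGAGGugguauggucuca
miR-6911-5p, chr10:80278169-80278191, plus strand, in Dazap1: uGGGCUGAgugggucuguggcau
miR-7028-5p, chr5:114719515-114719537, plus strand, in Tchp: uGGGCUGAggcuugggucaggag
miR-7079-5p, chr8:123104980-123105001, plus strand, in Rpl13: aGGGCUGAggcagugaguccug
miR-6922-5p, chr11:60202300-60202322, minus strand, in Srebf1: uGUGGGAGgggacuguagagagg
miR-6993-5p, chr19:10191380-10191402, plus strand: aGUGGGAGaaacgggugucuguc
miR-7008-5p, chr3:31038971-31038994, plus strand, in Prkci: uGUGGGAGaugccaggagccguac
miR-6965-5p, chr17:24240919-24240942, minus strand, in Ccnf: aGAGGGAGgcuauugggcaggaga
miR-7047-5p, chr7:24987640-24987662, minus strand: uGAGGGAGgagggcugggucuga
miR-6927-5p, chr11:97677060-97677081, plus strand, in Mllt6: gUGAGGGGauccagcccaggcu
miR-7070-5p, chr8:85062086-85062106, plus strand, in Fbxw9: gUGAGGGGagcugaggcagga

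Members of a seed group had unlike ratios in some groups and like ratios in others. In the first trio miR-7030-5p read 66.9 and 136 units, miR-7075-5p 41.6 and 68.4, and miR-7076-5p 29.7 and 87.1. Their log2 ratios of 0.53, 0.23 and 1.06, with spot errors of 0.16 to 0.18, span more than those errors. In the second trio miR-6911-5p read 20.7 and 26.6 units (log2 -0.13), miR-7028-5p 37.9 and 96.5 (0.86) and miR-7079-5p 18.5 and 42.0 (0.69). The third trio lay closer together: miR-6922-5p read 43.4 and 96.5 units (0.66), miR-6993-5p 26.6 and 38.4 (0.04) and miR-7008-5p 60.0 and 104 (0.30). With spot errors of 0.17 to 0.22, the ratios of the third trio also span more than their errors. Both members of the pair with miR-6965-5p were high, miR-7047-5p reading 215 and 731 units (1.28 ± 0.16). miR-6927-5p, at 11.8 and 15.3 units, and miR-7070-5p, at 145 and 201 units, had log2 ratios of -0.12 and -0.02 despite their different signals.

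The other groups showed the same mix. miR-6999-5p (1.37) and miR-7054-5p (0.91) were both high, as were miR-7034-5p (1.29) and miR-7071-5p (0.88). miR-7024-5p (1.22) and miR-6941-5p (-0.15) differed, and so did miR-7027-5p (2.24 ± 0.42) and miR-7010-5p (0.36 ± 0.28). The bright miR-7005-5p (0.63) shared its seed with miR-6975-5p (0.12 ± 0.20), and miR-6907-5p (0.86) with miR-7019-5p (0.40). In the remaining 4 groups the log2 ratios were 0.56 for miR-7012-5p and -0.51 for miR-7057-5p, 0.47 for miR-6967-5p and -0.01 for miR-7016-5p, -0.02 for miR-6926-5p and -0.09 for miR-7055-5p, and 0.63 for miR-7032-5p and -0.28 for miR-6990-5p. The miR-6967-5p sequence occurs at 2 loci, so its signal cannot be assigned to 1 gene.

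The 5p and 3p arms of the same hairpins were unlike in detection and in ratio. All 200 members had a 3p probe on the array. Among the 156 hairpins with both arms detected on the control array, both were also seen on the bevacizumab array in 97; the 3p arm alone was lost in 45, the 5p arm alone in 8 and both in 6. In the 97 hairpins with both arms on both arrays the 5p ratio was above the 3p ratio in 62 and below it in 35. The median difference, 5p minus 3p, was 0.39 (log2), and 0.22 when both arms had to exceed the blanks by 5 SD on both arrays. The 3p arms had lower signals, with a median of 8.35 units on the control array among those detected, nearer to the limits.

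Single hairpins differed in either direction. miR-7036b-5p was at -3.31 while its 3p arm read 21.7 and 24.1 units (log2 -0.34), and miR-6908-5p was at -1.87 while its 3p arm, at 4.0 and 8.42 units, was at 0.58. The largest differences the other way, named after their values were seen, were those of miR-6917-5p (log2 1.25), whose 3p arm was at -1.53, and of miR-7052-5p (1.21), whose 3p arm read 240 and 116 units (-1.53). A hairpin's arms are made together from the same precursor. These values show only that the 2 probes of a hairpin gave unequal ratios.

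**Figure D5:**
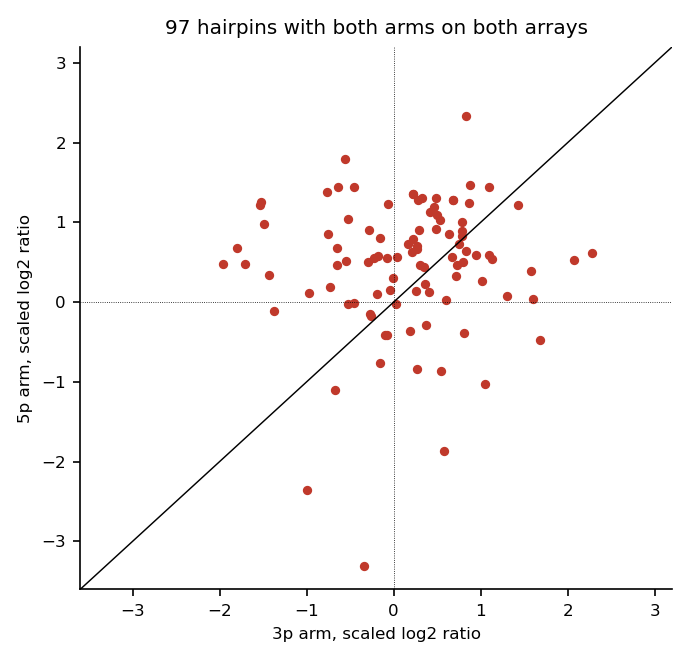
Scaled log2 ratio of the 5p arm against that of the 3p arm for the 97 hairpins with both arms detected on both arrays. The line marks equal ratios; 62 points lie above it, and the lowest point is miR-7036b, with a difference of -2.96.

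G content moved with detection, and among the other miRNAs weakly with the ratio. Members of 40% G or more were detected on the control array in 119 of 121 cases and on the bevacizumab array in 113 (93.4%); those under 40% G in 42 and 32 of 55 (58.2% on the latter). The median log2 ratios were 0.59 and 0.77. Members of 40% G or more were also brighter on the control array, with a median of 34.4 units among those detected, against 11.1. G content and signal were thus not separated in these counts. Over the 145 members with a sequence and detection on both arrays, Spearman's rho between the share of G and the ratio was -0.08, and it was 0.21 over the 639 other such miRNAs. Each is a correlation across probes of the same 2 arrays, which are not independent replicates. Outside the block, miRNAs of 40% G or more had ratios much like those of the members. Their median log2 ratio was 0.64, and 27.5% were at least 2-fold higher and 6.59% lower. Of members of 40% G or more, 27.4% were higher and 4.42% lower. Detection was lost more often outside the block. Of 191 such miRNAs detected on the control array, 12.6% were not seen on the bevacizumab array, against 5.04% of 119 such members. Similar ratios were thus found outside the number block, and the part of G content in detection and ratio was not tested.

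Mirtrons outside the block gave mixed values. miR-1224-5p, at 109 and 259 units (log2 0.76 ± 0.16), lay within its spot error of the members' median. miR-877-5p, at 9.41 and 28.7 units (1.12 ± 0.29), lay above that median by more than its spot error, near the upper quartile, 1.06. miR-702-5p was at 0.12. Of the 3p arms, miR-702-3p was at -1.04, miR-877-3p at -0.15 and miR-1224-3p at 0.31. Of these 6, 1 was more than 2-fold higher and 1 more than 2-fold lower, with all 6 detected on both arrays.

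miRNAs that mark cell types gave lower summed signals with bevacizumab, undetected ones being added at their measured values, which can be below 0. Bright miRNAs numbered below 2000, the class they belong to, were low in general: of the 124 detected by both arrays and above 100 units with control IgG, 94 had ratios 2-fold lower or more, and the median log2 ratio was -2.64. All 5 epithelial miRNAs of the miR-200 family were detected on the control array, with signals summing to 549 units, but only miR-200b-3p on the bevacizumab array, where the sum was 22.1. Sums went from 997 to 86.5 units for the endothelial miR-126a arms, from 256 to 35.8 for 3 blood cell miRNAs, from 1699 to 150 for the erythroid pair, from 2757 to 270 for the mural pair and from 2016 to 232 for the striated muscle pair. Fewer cells of a type and less RNA per cell cannot be told apart in such samples. The part of cell composition in the members' ratios was not tested.

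The members seen on 1 array only were dim. The 16 seen on the control array alone read 1.70 to 11.2 units there. The highest was miR-6942-5p at 11.2 units there and 7.30 with bevacizumab, at least 1.95-fold lower when set against the lowest detected bevacizumab signal. miR-7004-5p, miR-7060-5p, miR-6904-5p and miR-6896-5p read 7.22, 7.12, 6.37 and 5.94 units with control IgG, with bounds of 1.26-fold, 1.24-fold, 1.11-fold and 1.03-fold. No bound reached 2-fold, and 10 of the 16 had none above 1. miR-6920-5p was the 1 member seen on the bevacizumab array alone, at 9.74 units there and 0.872 with control IgG, at least 4.17-fold higher, with a signal close to the detection limit.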

How the data were processed

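Per the file headers, the deposited scanner files hold the median 635 nm intensity of each spot and of its surroundings, on a linear scale, put together from 3 scan gains by least squares, with no background correction or normalization. The authors' deposited value table is also in intensity units and lay on the blank-subtracted spot values divided by a factor per array (largest departure 0.0512 units); dim miRNAs are empty there, with software not given in the sources used here. The labels name 2 column kits for the RNA, a standard one and one made for small RNA.

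Blank means (72.8 ± 0.828 and 185 ± 4.03 units, trimmed, SD over spots) were subtracted, and each array was divided by its median over miRNAs detected on both. The control and bevacizumab arrays detected 1416 and 940 of 1900 miRNA probes. With 1 array per group no test was possible, and the number of arrays limits the precision. Alternatives used limma 3.58.1 (normexp, quantile) in R 4.3.3; the ratio script ran in Python 3.11.15 and was tested on simulated data. Named members were the 8 highest and 8 lowest ratios above 5 SD on both arrays, the 5 highest signals per array, the 5 highest seen on 1 array only, the 3 nearest the median ratio and members sharing a seed. Members, lists and rules were chosen with earlier results of these data known.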

Additional observations from a re-analysis of the deposited data

How the results depend on the processing

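At the 2 SD limit 182, 167 and 166 members were detected on the control, bevacizumab and both arrays. At 5 SD the counts were 170, 140 and 139, against 1173, 624 and 617 of all 1900 miRNA probes. The authors' deposited table listed 182, 167 and 166 members. It holds the same spot values divided by a factor per array, so it is no separate check of detection. The size counts depended on the scale. At least 2-fold higher, at least 2-fold lower and the median log2 ratio were 50, 7 and 0.61 as reported (19.7% and 19.5% of all miRNAs). They were 96, 4 and 1.10 without scaling (all 40.7% and 16.1%). They were 0, 97 and -1.17 when scaled to the control probes, where 58.4% of members and 70.3% of all were lower. In the authors' deposited table they were 6, 23 and -0.17 (all 2.94% and 32.5%). They were 32, 4 and 0.35 with normexp at an offset of 50 and quantile normalization (all 10.5% and 11.6%), and 78, 4 and 0.95 at an offset of 0 (all 33.4% and 17.0%). With local background they were 12, 12 and -0.0010, over the 165 members left (all 9.14% and 17.4%). With the median ratio of all miRNAs set to 1, added after seeing the data, they were 19, 10 and 0.28 (all 9.92% and 22.8%). A factor per array leaves the gap of 0.28 between the members' median and that of all miRNAs as it is. The gap was 0.21 and 0.35 with normexp at offsets of 50 and 0, and 0.00095 with local background. At 5 SD they were 39, 6 and 0.58 over 139 members (all 20.6% and 19.9%), with a gap of 0.19. The blank mean of each probe's own block was added after seeing the data. With it they were 52, 7 and 0.64 (all 21.0% and 19.5%), with a gap of 0.30. The median difference between arms was 0.22 at 5 SD and 0.34 with normexp at 50 and quantile normalization. Of 55 named members with a ratio, those called 2-fold and turned by scaling to the control probes were miR-6988-5p (-0.19), miR-6969-5p (-0.28), miR-6965-5p (-0.29), miR-7003-5p (-0.31), miR-7063-5p (-0.40), miR-6937-5p (-0.33), miR-6999-5p (-0.41), miR-7034-5p (-0.49), miR-7047-5p (-0.50), miR-7076-5p (-0.72) and miR-7024-5p (-0.56). Local background turned miR-7034-5p (-0.51). For the other settings the cause was not tested. No paired analysis was possible because each group has 1 array, and no replicate could be left out.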
